A study of Rattus norvegicus with 6 samples.

Results

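Leaders and junction-spanning fragments are the pieces of a tRNA precursor that reach outside the mature tRNA, and they were counted here in small RNA libraries of rat muscle. A precursor in the deposited alignments holds 40 bases of flank before the mature tRNA, the leader, and 40 bases after it, the trailer. The members were the distinct sequences that aligned to a nuclear precursor other than those of His-GTG, aligned to no mature tRNA, and either started in the leader or started at least 3 bases before the mature 3' end and ended beyond it. This gave 2945 of the 77567 distinct sequences in the table, with 5607 reads. Of these, 557 sequences lay wholly in a leader (780 reads), 1470 crossed the mature 5' end (3368 reads, called 5' junctions) and 918 crossed the mature 3' end (1459 reads, called 3' junctions). The rule used position alone and no level in any library.

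The libraries were 3 titled as control and 3 titled as experimental, all of muscle from Rattus norvegicus of the lewis strain, aged 6 to 8 weeks. The title of the series concerns tRNA-derived small RNAs in acute rejection of vascularized composite allotransplants. The labels give no treatment for the experimental samples and no agent, genotype or time for either group, and their design text and a skin characteristic describe a different experiment in mice. The labels do not say whether libraries of 1 group are separate animals, and p-values therefore cover the spread between libraries alone, which may be technical.

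A tRNA gene is transcribed by RNA polymerase III, which starts a few bases upstream of the mature 5' end, usually at a purine, and stops in a run of T downstream of the 3' end. RNase P cuts off the leader, RNase Z cuts off the trailer, some tRNAs lose an intron, and CCA is then added to the 3' end. A read across either mature end therefore comes from an RNA on which that cut had not been made, or to whose end a base had been added, and free trailers are a known class of tRNA-derived RNA.

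The tRNA-aligned reads numbered 550004, 740627 and 316990 in control and 876494, 1927269 and 1866227 in experimental libraries. Members were rare: 2336 of the 2945 sequences (79.3%) had a single read, and 17 were read in all 6 libraries. All 4326 alignments of members carried the type "Other" in the authors' table. Reads of 14 to 40 nt were in the table, so a fragment longer than 40 nt could not be seen, and each alignment had at most 1 mismatch.

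The 5' junctions that carry the main pattern are shown first, with leader bases in capitals and mature bases in lower case. The first 3 come from the 4 main Lys-TTT genes and are, for each leader, the form with the highest mean over libraries after scaling to depth. The fourth has the start that led at Gly-GCC-1-7 among exact reads with 2 or more leader bases, and the fifth starts with a base that no Gly-GCC or Gly-CCC gene has there.
Lys-TTT-1-3: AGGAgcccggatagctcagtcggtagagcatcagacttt
Lys-TTT-1-2 and Lys-TTT-1-4: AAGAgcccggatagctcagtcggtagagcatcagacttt
Lys-TTT-1-1: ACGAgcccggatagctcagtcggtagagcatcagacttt
Gly-GCC-1-7: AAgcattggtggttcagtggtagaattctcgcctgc
Gly-GCC and Gly-CCC with unmatched C: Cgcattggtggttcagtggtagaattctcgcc

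The 3' junctions named for their abundance are shown in the same way, with trailer bases in capitals. The Ser-AGA and Val-AAC reads end within the T run of their trailer, and the Val-AAC read holds CCA. The Ile-TAT read ends at trailer base 8, beyond its run from base 3. The Tyr-GTA read ends at trailer base 2, before its run from base 14.
Ile-TAT-2-2: ctcacctggagcaTGTTTTCT
Ser-AGA-1-1: ccgactacgGTAAGAGAATTGTTTT
Tyr-GTA-1-1: atccggctcgaaggaCT
Val-AAC-1-1: accgggcggaaacaCCATT

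The 2 most abundant leader sequences, in capitals throughout, were both short and both had a mismatch to their precursor.
Pro-AGG-6-1: ACCAGTAGAACACA
Cys-GCA-3-1: CGAACACTGAGGCC

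The 5' junctions were the largest class and came mostly from a few tRNAs. Split equally where a sequence matched several anticodons, Gly-GCC held 944.5 of the 3368 reads and Lys-TTT, a lysine tRNA, held 886. Pro-TGG followed with 156.5 reads, Pro-AGG with 138 and Lys-CTT with 130. Reads of 30 to 40 nt made up 75.0% of the class, and 53.2% of its reads matched a precursor without mismatch. The number of leader bases kept, counted from the aligned start with or without a mismatch, was not spread evenly. By this count 993 reads kept 4 leader bases and 861 kept 1, while 524 kept 2 and 347 kept 3.

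The Lys-TTT junctions started at one place. Of the 890 reads that aligned to a Lys-TTT precursor, 701 kept 4 leader bases (78.8%), 141 kept 3 and 27 kept 1. The 6 Lys-TTT genes differ in their leaders but all end in ANGA, a 4-base ending (N stands for any base) that 12 of the 348 precursors (3.45%) have when the end of the leader is read on the strand of the tRNA. The leader and first mature bases of the 4 genes with most reads are printed to show the start in its context, with the leader in capitals.
Lys-TTT-1-1: TCGCTCACGAgcccggatag
Lys-TTT-1-2: ATCCTCAAGAgcccggatag
Lys-TTT-1-3: TCCTACAGGAgcccggatag
Lys-TTT-1-4: CCATGTAAGAgcccggatag
The mature genes lie on chromosome 1 from 228439662 to 228439734 and from 228442932 to 228443004 (Lys-TTT-1-1 and 1-2), on chromosome 10 from 55711636 to 55711708 (1-3) and on chromosome 17 from 45637303 to 45637375 (1-4). Positions follow the deposited files and are 1-based; their genome build and strand are not given in the sources used here.

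Among exact reads with at least 2 leader bases, 241 of 244 at Lys-TTT-1-3 and 144 of 152 at Lys-TTT-1-1 kept exactly 4. By library, the reads of Lys-TTT-1-3 with 4 leader bases numbered 22, 26 and 30 in control and 33, 51 and 79 in experimental libraries. Those of Lys-TTT-1-1 numbered 7, 9 and 18 against 21, 54 and 35. The reads with AAGA, which Lys-TTT-1-2 and 1-4 share, numbered 3, 10 and 16 against 11, 41 and 39. All 3 leaders were thus read with this start in every library, and the deeper experimental libraries held most of the reads.

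Among exact reads with 2 or more leader bases, a start at A led beyond Lys-TTT too. Exact 5' junction reads with 2 or more leader bases numbered 1373, from 179 genes, and 1091 of them (79.5%) began with A, 13.1% with G, 4.59% with C and 2.84% with T. Among the bases 2 to 12 positions upstream of the mature end in those leaders, 23.2% were A, 23.8% G, 27.9% C and 25.1% T. Among the 861 reads with 1 leader base, A did not lead: C was the first base of 318, A of 279, T of 197 and G of 67. Most starts at A with 2 or more leader bases followed a C or T in the leader: 1042.83 reads (76.0%, shared equally among equal alignments) began at such an A, against 14.98% of the same leader bases. Without Lys-TTT this share was 63.3% of 847 reads, against 14.9% of the leader bases. It was 76.5% ± 2.05 (SD, n = 3) in control and 74.6% ± 4.32 (SD, n = 3) in experimental libraries, and the groups overlapped (two-sided exact permutation test, p = 0.7; adjusted p = 0.84 over 6 measures). The reads of a gene share their source and genes share leaders, so the contrast with the leader bases is a description and carries no test, and the measure was chosen after its values were seen.

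**Figure D1:**
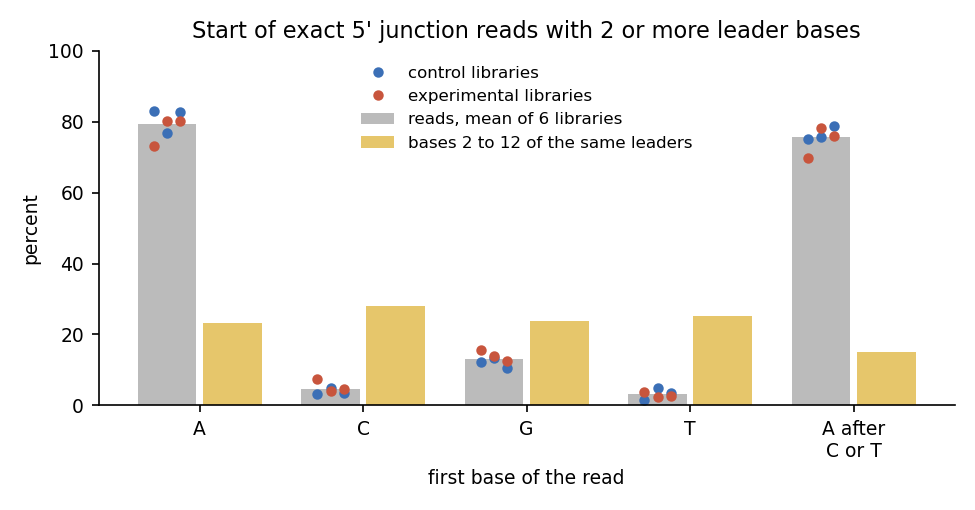
First base of exact 5' junction reads that kept 2 or more leader bases. Grey bars give the mean percent over 6 libraries, points the libraries (blue control, red experimental), and yellow bars the percent of bases 2 to 12 of the same leaders. Reads began with A in 73.3% to 83.1% of cases, against 23.2% of the leader bases.

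Taken gene by gene, the start differed in distance but less in kind. Of the 34 genes with at least 10 such reads, the leading start was at A in 23 and at G in 8, and at an A after C or T in 21. It lay 2 to 8 bases before the mature end, and in 13 genes it held at least 80% of the reads. Genes with identical or near-identical leaders share reads, so the 34 are not separate observations. Proline genes show a range of distances. The leading starts of 6 that began at A and 2 that began at G are printed with the leader bases of the read in capitals and, as the first letter, the leader base just before the start, which is not in the read.
Pro-AGG-2-1: cATggctcgttggtc
Pro-TGG-1-5: tATggctcgttggtc
Pro-TGG-1-3: cAGTggctcgttggtc
Pro-AGG-1-5: cATCggctcgttggtc
Pro-TGG-1-4: cAGCTggctcgttggtc
Pro-AGG-1-7: tATCTggctcgttggtc
Pro-AGG-1-6: gGTggctcgttggtc
Pro-CGG-1-3: tGAGAGCggctcgttggtc
The start GTggct also led at Pro-AGG-1-4 and Pro-CGG-1-1, with 11 of 18 exact reads at each.
Over all Pro-TGG junctions, 66 of 215 reads kept 2 leader bases, 46 kept 3, 42 kept 4 and 37 kept 5. The start ATggct, shared by Pro-TGG-1-5 and Pro-AGG-2-1, had 1, 0 and 1 reads in control and 5, 17 and 13 in experimental libraries. The start AGCTggct of Pro-TGG-1-4 had 9, 2 and 6 reads in control and 1, 2 and 1 in experimental libraries. As counts, the first was higher in every experimental library, and the second was 2 in both control replicate 2 and experimental replicate 2. These counts are not scaled to depth, and the experimental libraries were deeper, so the shared count of 2 is not an overlap in level. Both starts were picked after their values were seen and were too rare to be tested singly.

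**Figure D2:**
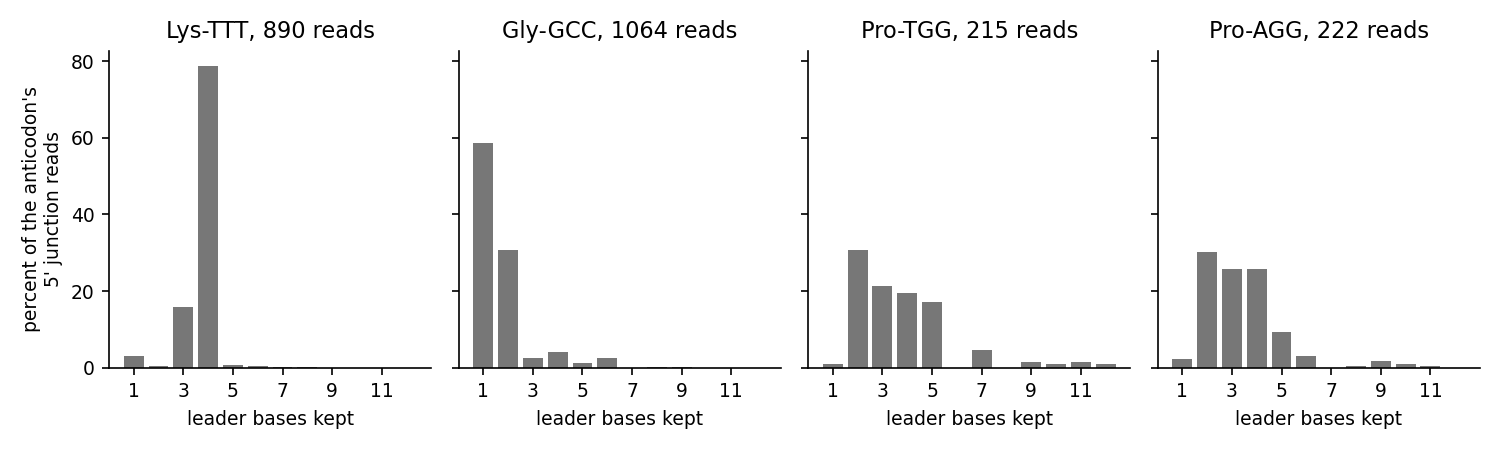
Leader bases kept by 5' junction reads of 4 anticodons, as percent of each anticodon's reads (6 libraries summed; reads with more than 12 leader bases are not drawn). Lys-TTT reads stand at 4 bases (78.8%), Gly-GCC reads at 1 and 2, and proline reads spread from 2 to 5.

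Glycine junctions mostly kept 1 or 2 leader bases. Of 1064 reads on Gly-GCC precursors, 623 kept 1 base and 327 kept 2 by aligned start. Of these, 267 and 157 matched a precursor exactly. Gly-GCC-1-7, on chromosome 19 from 43186443 to 43186513, had 148 exact reads with 1 leader base, some shared with other genes, and 143 with 2. Those with 2 numbered 11, 12 and 6 in control and 22, 62 and 30 in experimental libraries. Scaled to 1000000 tRNA-aligned reads (RPM), they stood at 20, 16.2 and 18.9 against 25.1, 32.2 and 16.1, and the groups overlapped.

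Reads with a single leader base often differed from every precursor at that base. Over all tRNAs, 418 of the 861 reads with a single leader base matched a precursor in full, 204 had a first base that matched none of their precursors, and 239 had their mismatch elsewhere. C was the first base of 191 of those 204, and 185 were on Gly-GCC and Gly-CCC. None of the 15 genes of these 2 anticodons has C as its last leader base: 6 have A, 5 have G and 4 have T. Across all 348 precursors 14.4% have C there. Where genes with A, G and T there share the mature part of a read, only C can fail to match. The lead of C and of glycine among unmatched bases therefore follows in part from the genes. An added A, G or T would count as a match there, so a match does not show that a leader base was kept. The 185 reads were spread over every library, with 16, 18 and 7 in control and 24, 58 and 62 in experimental libraries. The read with the unmatched C printed above was in every library, with 9, 12 and 3 reads in control and 5, 7 and 14 in experimental libraries. The origin of this C was not tested, and an addition cannot be told apart from a base difference between the animals and the reference.

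The amount of junction beside the mature fragment differed widely between tRNAs. Mature 5' fragments, counted as reads that start at mature base 1, numbered 7595 for Lys-TTT against its 890 junction reads, or 117 junction reads per 1000. Lys-CTT, whose mature 5' fragments numbered 316062, had 0.424 per 1000, and Gly-GCC with 4775559 had 0.223. For Arg-TCT, Asn-GTT and Arg-ACG the junction reads outnumbered the mature ones, at 92 against 16, 57 against 6 and 39 against 3. In each library the junction share of Lys-TTT was above that of Lys-CTT, by 7.23 to 9.66 on the log2 scale (mean 8.30 ± 0.91, SD, n = 6). Lys-CTT had only 6, 2 and 4 junction reads in control libraries, counted without splitting, and the value of 9.66 rests on the 2 of control replicate 2. The pair was chosen after its values were seen, so this is a description with no test.

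Both parts of the Lys-TTT ratio varied between libraries. Junction reads of Lys-TTT numbered 55, 71 and 102 in control and 120, 268 and 274 in experimental libraries. Mature 5' reads numbered 309, 338 and 105 against 910, 3817 and 2116. This gave 178, 210 and 971 junction reads per 1000 mature reads in control and 132, 70.2 and 129 in experimental libraries. The groups did not overlap, and control replicate 3 stood far above the rest (exact permutation p = 0.1, the smallest that 3 against 3 allow; adjusted p = 0.15 over 6 measures). Scaled in the same way, Lys-TTT junctions stood at 173 ± 129 (SD, n = 3) in control and 141 ± 5.21 (SD, n = 3) in experimental libraries (exact permutation p = 1). Without control replicate 3, which alone stood at 322, the difference was 43.0 higher in experimental libraries. The ratio and the scaled level were both added after the data were seen, and the adjustment covers only the 6 added measures.

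The 3' ends of the Lys-TTT junctions lay in the anticodon, positions 34 to 36 of the mature tRNA. Reads ending at position 35 numbered 30 of 55, 39 of 71 and 70 of 102 in control and 33 of 120, 84 of 268 and 86 of 274 in experimental libraries. That is 59.4% ± 8.02 (SD, n = 3) against 30.1% ± 2.23 (SD, n = 3). Reads ending at position 36 numbered 8, 23 and 19 in control and 60, 122 and 145 in experimental libraries, or 21.9% ± 9.35 (SD, n = 3) against 49.5% ± 3.73 (SD, n = 3). The groups overlapped in neither measure, and each reached the smallest p that 3 against 3 allow (exact permutation, p = 0.1; adjusted p = 0.15 over 6 measures). Both measures were added after the data were seen, and the adjustment covers only the 6 added ones. The shares at 35 and 36 are parts of 1 total, so they are not separate results. A read with 4 leader bases that ends at position 36 is 40 nt long, the longest in the table, so ends further on could not be seen for it.

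The 3 leaders differed in this although the mature part of their reads is identical. With 4 leader bases and no mismatch, ACGA reads of Lys-TTT-1-1 ended at position 35 in 47 and at 36 in 81 cases. AGGA reads of Lys-TTT-1-3 ended there in 88 and 129 cases, and AAGA reads of Lys-TTT-1-2 and 1-4 in 96 and 10. The AAGA reads ending at 36 numbered 0, 0 and 0 in control and 0, 6 and 4 in experimental libraries, against 3, 10, 16, 9, 30 and 28 ending at 35 in the same order. This split by leader was seen in the data first and was not tested.

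Mature Lys-TTT 5' fragments most often ended at position 33, which held 33.3% to 50.9% of them by library. Junction reads ended later on average, by 0.24 to 2.41 bases by library (mean 1.88 ± 0.83, SD, n = 6; later in 6 of 6 libraries), a measure chosen after its values were seen and given with no test. Experimental replicate 2 had the smallest gap.

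**Figure D3:**
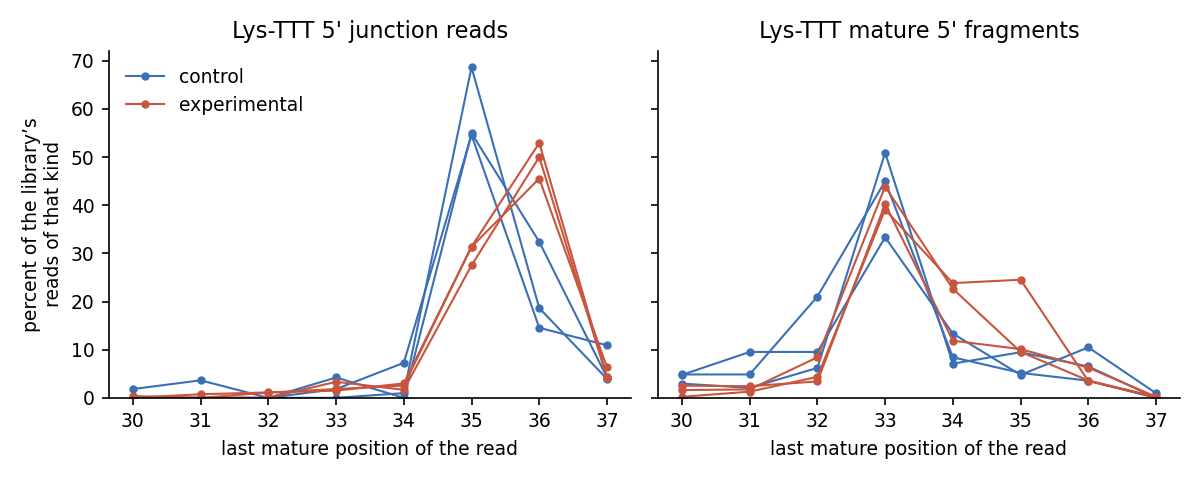
Last mature position of Lys-TTT reads, as percent of each library's junction reads (left) or mature 5' fragments (right), 1 line per library (blue control, red experimental). Position 35 leads in the control junctions (mean 59.4%) and position 36 in the experimental ones (mean 49.5%), while mature fragments peak at 33 in every library.

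The ends of Gly-GCC junctions varied widely between libraries. Those ending at position 34, within the anticodon, numbered 7 of 105, 17 of 123 and 6 of 38 in control and 42 of 148, 193 of 395 and 43 of 255 in experimental libraries. The means were 12.1% ± 4.80 (SD, n = 3) and 31.4% ± 16.2 (SD, n = 3), and the groups did not overlap, though experimental replicate 3 (16.9%) stood close to control replicate 3 (15.8%) (exact permutation p = 0.1, adjusted p = 0.15). The share at position 34 was added as a measure after the data were seen. Mature Gly-GCC 5' fragments ending there made up 0.704%, 2.24% and 0.511% of the control and 10.3%, 15.9% and 3.39% of the experimental libraries' reads. The largest single part was the 36 nt read of Gly-GCC-1-7 printed above, with 0, 0 and 1 reads in control and 14, 52 and 9 in experimental libraries. It was too rare to enter the main fit. In the same start series, the reads ending at position 31 numbered 7, 4 and 0 against 0, 5 and 9, and these overlapped.

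The 3' junctions were fewer and shorter, with 60.1% of reads at 18 to 29 nt and 47.7% exact. Most ended in the T run, the signal at which transcription stops. TTTT was found in the 40 trailer bases of 283 of the 348 precursors (81.3%; strand of the tRNA, first match), at trailer base 9 at the median. Of the 1459 reads, 806 (55.2%) ended within the first such run, 385 before it and 175 beyond it, and 93 were on precursors without one. On precursors with the run, ends on the third T held 23.3% and on the fourth T 21.7% of 3' junction reads. Trailer reads, which start after the mature 3' end or at most 2 bases before it, ended there in 23.2% and 40.9% of cases. With a floor of 14 nt, trailer reads could not end before the run on most precursors that have it. Ends before the run therefore cannot be compared between the 2 kinds.

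**Figure D4:**
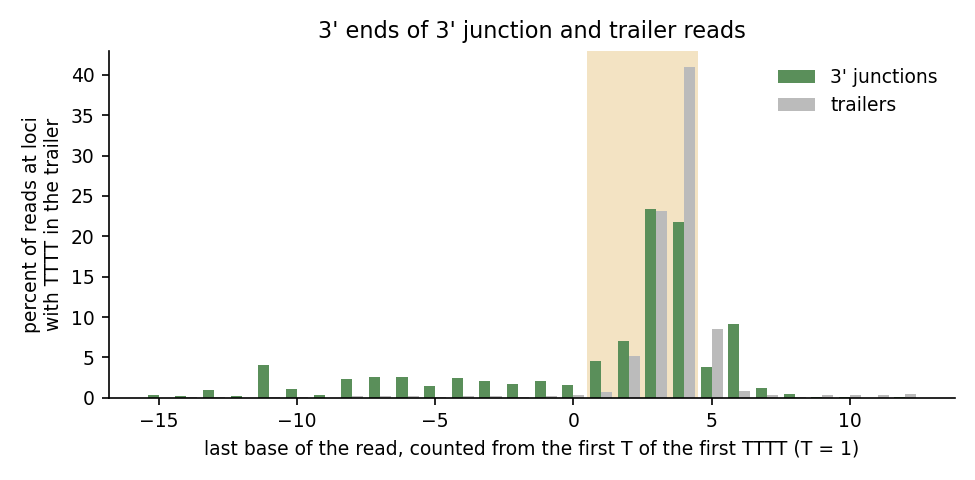
Last base of 3' junction (green) and trailer (grey) reads, counted from the first T of the first TTTT in the trailer, as percent of reads on precursors with that run; the shaded band marks T 1 to 4. Both kinds peak at T 3 and T 4. 3' junctions have more ends before the run, where most of these precursors leave no room for a trailer read of at least 14 nt.

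A few genes led the class. Ile-TAT-2-2 (chromosome 17, 44696387 to 44696480) had the most reads, and 113 of the 159 that aligned to it had 13 mature and 8 trailer bases. These 113 reads ended beyond its T run, which starts at trailer base 3. They numbered 11, 18 and 13 in control and 13, 37 and 21 in experimental libraries. Ser-AGA-1-1 (chromosome 5, 23358376 to 23358457) had 115 reads, most with 8 or 9 mature bases and 15 or 16 trailer bases. The form with 9 and 16 had 1, 1 and 2 reads in control and 9, 4 and 25 in experimental libraries, and Ser-AGA-1-1 gave the longest flank of any member read in all 6 libraries. Tyr-GTA-1-1 (chromosome 6, 26856459 to 26856547) had 127 reads with scattered ends. Its leading form, with 15 mature and 2 trailer bases, had 11, 0 and 1 reads in control and 5, 2 and 11 in experimental libraries. The first 2 were read in every library in these forms, and the Tyr-GTA form was not. The next sequence in abundance, shared by Cys-GCA-5-10 and 3 near-identical genes, had 13 reads, 9 of them in control replicate 2.
The mature 3' end and trailer of the first 2 genes are printed to show where the T run lies, with the trailer in capitals.
Ile-TAT-2-2: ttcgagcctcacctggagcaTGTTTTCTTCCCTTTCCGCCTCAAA
Ser-AGA-1-1: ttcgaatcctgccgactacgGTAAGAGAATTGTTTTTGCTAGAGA

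Anticodons whose genes can hold an intron were frequent among 3' junctions. Tyr-GTA, Leu-CAA, Ile-TAT and Arg-TCT together held 413.5 of 1459 reads (28.3%), while 16 of the 348 precursors (4.60%) are theirs. The same anticodons held 3.95% of 5' junction reads and 3.46% of leader reads. Ile-TAT and Tyr-GTA made up most of it, with 173 and 162 reads, while Leu-CAA had 56.5 and Arg-TCT 22. Of these reads, 158 aligned to Ile-TAT-2-2 alone and 127 to Tyr-GTA-1-1 alone, so the share rests largely on single genes.

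Some 3' junctions carried CCA followed by more bases. There were 70 such reads (4.80%) in 14 sequences, of which 61 reads were on Val-AAC-1-1 (chromosome 2, 116415357 to 116415429). The 61 numbered 7, 7 and 11 in control and 8, 11 and 17 in experimental libraries. These counts are not scaled to depth, and the experimental libraries were deeper. They do not show whether the groups overlapped and were not tested. The precursor is printed here with its trailer in capitals. The Val-AAC-1-1 read shown above differs from it at base 16 of the read, within the CCA.
Val-AAC-1-1: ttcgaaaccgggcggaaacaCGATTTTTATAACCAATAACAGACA
In that read CCA stands where the precursor has CGA, and the bases after it match the trailer. Of the 62 3' junction reads that aligned to Val-AAC-1-1, 61 carried CCA. Whether CCA was added to these RNAs, or the animals differ from the reference at this base, was not tested.

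Leaders were the least distinct class. Of their 780 reads, 726 (93.1%) were 14 to 17 nt long and 7.31% matched a precursor exactly, and no leader sequence was read in all 6 libraries. Ends were scattered over the leader, and 38 reads ended at its last base, where RNase P cuts. Reads of at least 18 nt numbered 54, and 12 of these ended there. The most read precursors were Ala-AGC-11-1 (chromosome 1, 89094757 to 89094829) with 51 reads and Pro-AGG-6-1 (chromosome 13, 21542556 to 21542628) with 50. Cys-GCA-3-1 (chromosome 10, 85743874 to 85743945) followed with 21. Ala-AGC-11-1 and Pro-AGG-6-1 differ in anticodon, yet the mature part of both begins ttggggatttagctcagtggtagagcg. Both trailers begin AAAAAGAA, and neither holds the TTTT at which transcription of a tRNA gene stops. Whether Ala-AGC-11-1 and Pro-AGG-6-1 are transcribed and cut as tRNA genes was not tested. The Pro-AGG-6-1 sequence printed above had 0, 7 and 10 reads in control and 7, 0 and 8 in experimental libraries. The leader sequences next in abundance, on Ala-AGC-11-13, Pro-AGG-1-6 and Lys-CTT-1-8, had 14, 13 and 12 reads in all. Lys-TTT, with its many 5' junctions, gave 10 leader reads. Short reads with a mismatch can match more than 1 place in a genome, and their origin was not tested.

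Between the groups, no class differed beyond the spread of its libraries. Leaders stood at 90.9, 169 and 129 RPM in control and 201, 79.9 and 125 in experimental libraries (exact permutation p = 1). The 5' junctions stood at 560, 429 and 817 against 548, 564 and 491 (p = 0.8, exact permutation). The 3' junctions stood at 351, 198 and 328 against 358, 164 and 206 (p = 0.7, exact permutation). The groups overlapped in all 3 classes. All members together stood at 1024 ± 240 (SD, n = 3) in control and 912 ± 168 (SD, n = 3) in experimental libraries, a difference of -112 (exact permutation p = 0.7; adjusted p = 0.914 over 8 measures). Control replicate 3, the shallowest library, was the highest in 5' junctions, and without it all members were 13.1 and 5' junctions 39.5 RPM higher in experimental libraries.

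**Figure D5:**
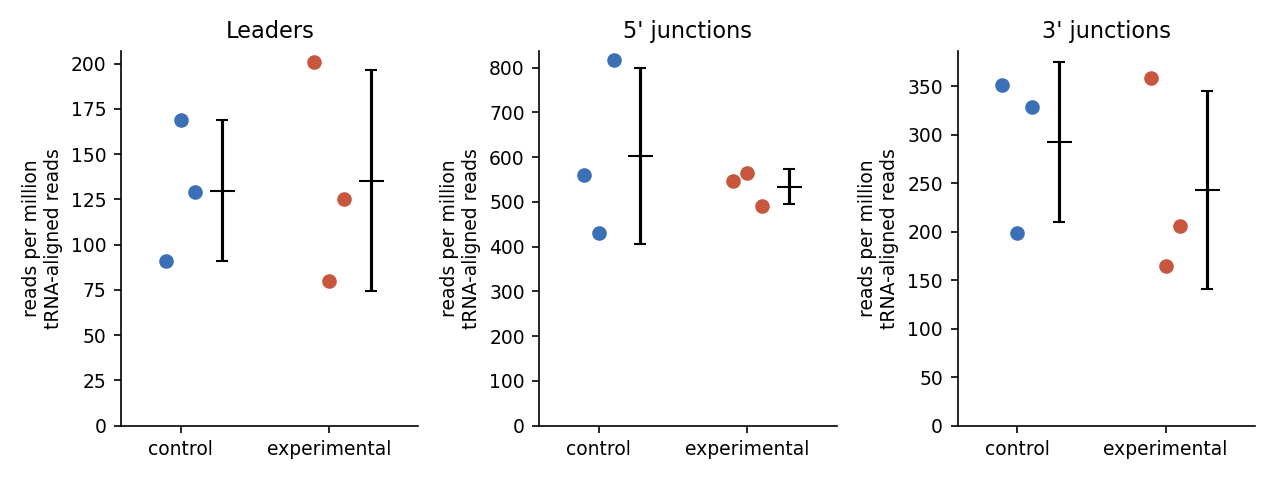
RPM (reads per 1000000 tRNA-aligned reads) in each library for the 3 classes (points; black bars give mean and SD, n = 3). The groups overlap in each panel, with 5' junctions between 429 and 817 and leaders between 79.9 and 201.

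Of the 4 measures of where members start and end, 2 did not overlap between the groups. The 3' junction reads ending in TTT numbered 66 of 193, 42 of 147 and 35 of 104 in control and 150 of 314, 115 of 317 and 166 of 384 in experimental libraries, or 32.1% ± 3.10 (SD, n = 3) against 42.4% ± 5.79 (SD, n = 3) (exact permutation p = 0.1, adjusted p = 0.4 over 8 measures). Leader reads ending at the last leader base numbered 2 of 50, 3 of 125 and 2 of 41 against 10 of 176, 9 of 154 and 12 of 234, or 3.76% ± 1.26 (SD, n = 3) against 5.55% ± 0.375 (SD, n = 3) (exact permutation p = 0.1, adjusted p = 0.4). With leader reads of at least 18 nt alone, 12 of 54, this last difference turned to -8.97 percentage points. Since 0.1 is the smallest p of this design, neither could pass a threshold of 0.05. The 5' junction reads starting at the last leader base made up 17.7% ± 8.61 (SD, n = 3) against 27.4% ± 3.58 (SD, n = 3), and overlapped (exact permutation p = 0.3). 3' junctions made up 17.1% ± 8.39 (SD, n = 3) of 3' junction plus trailer reads in control and 10.1% ± 3.29 (SD, n = 3) in experimental libraries, and overlapped (exact permutation p = 0.3).

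Single members could hardly be tested at this depth. In a limma voom fit of all fragments, 2226 passed a filter on low counts and 586 were called at an adjusted p under 0.05 (26.3%), 416 higher (18.7%) and 170 lower (7.64%) in experimental libraries. Only 4 members passed that filter, and none was called. None had an unadjusted p under 0.05 either, against 37.3% of all fragments. With each fragment's own spread 1 of the 4 did, against 26.5% of all fragments, and none was called, against 1.03%. After normalisation the groups did not overlap for 1 of the 4, against 40.7% of all fragments. That member was the AGGA read of Lys-TTT-1-3 ending at position 35, with 15, 15 and 17 reads in control and 7, 13 and 21 in experimental libraries. Its normalised level was 32.0 ± 14.3 CPM (SD, n = 3) in control and 10.4 ± 3.76 CPM (SD, n = 3) in experimental libraries (limma voom log2 fold change -1.56 ± 0.95 SE, adjusted p = 0.223). The same read 1 base longer stood at 17.2 ± 12.1 against 26.3 ± 8.60 CPM (SD, n = 3; limma voom adjusted p = 0.606). Under 3 scalings the median log2 fold change over all fragments was 0.21 (trimmed means), 0.01 (median of ratios) and -0.07 (library totals).

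With only a floor of 1 read in 2 libraries, 400 members were tested and 12 were called in the limma fit, 2 higher and 10 lower, where 5.12% of all fragments were called higher and 2.30% lower. The Gly-GCC-1-7 read ending at position 34 was higher (log2 fold change 3.59 ± 0.81 SE, adjusted p = 0.000628). The other one higher was the ACGA read of Lys-TTT-1-1 ending at position 36 (log2 fold change 3.08 ± 0.92 SE, adjusted p = 0.0173), with 0, 2 and 2 reads in control and 15, 40 and 22 in experimental libraries. Of the 10 lower, 7 were 5' junctions, 2 leaders and 1 a 3' junction, each with at most 14 reads. The largest were the AGT read shared by Pro-AGG-1-1 and 2 more proline genes that ends at position 29, with 1, 6 and 1 reads in control and none in experimental libraries (log2 fold change -3.26 ± 0.82 SE, limma adjusted p = 0.00285), and the Gly-GCC-1-7 read ending at position 30, with 1, 3 and 2 reads against none (log2 fold change -3.21 ± 0.82 SE, limma adjusted p = 0.00341). A proline read with 3 leader bases ending at 31 and another with 2 ending at 29, 3 Gly-GCC or Gly-CCC reads with 2 leader bases and a mismatch, the 14 nt leader reads of Val-CAC-1-1 and Ala-AGC-11-13, and a 29 nt Tyr-GTA-1-1 read made up the rest. Members this rare have 0 reads in some libraries, and their fitted fold changes depend on the prior count. Most of the 10 lower ones had no read in any experimental library and met the floor through control libraries alone. The Gly-GCC-1-7 read ending at position 34 met it through experimental libraries alone. For such members the floor favours the direction seen, so these calls are no support for a difference.

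Summed by anticodon and class, 111 sums were tested and 1 was called (0.901%), which is not a sum of members. Of the 15 member sums tested, none was called by limma voom, and 2 had an unadjusted p under 0.05, where 14 of all 111 sums (12.6%) did. These 2 are given as values. Pro-TGG 5' junctions had 34, 24 and 25 reads in control and 18, 31 and 25 in experimental libraries, or 51.0 ± 14.4 against 18.02 ± 2.66 CPM (SD, n = 3; log2 fold change -1.41 ± 0.51 SE; adjusted p = 0.255, limma voom). Lys-CTT 5' junctions had 6, 2 and 3 against 17, 62 and 40 reads, or 6.62 ± 3.09 against 28.2 ± 13.1 CPM (SD, n = 3; log2 fold change 1.94 ± 0.75 SE; adjusted p = 0.314, limma voom). With sequences of 1 anticodon alone, where 3.64% of sums were called, Pro-TGG 5' junctions were lower (log2 fold change -2.27, limma voom adjusted p = 0.0449). In these 2 sums the groups did not overlap, against 23.4% of all sums. The Lys-CTT sum passed the filter through the experimental libraries alone. Neither its p-value nor its lack of overlap is therefore support for a difference. Mature Pro-TGG 5' reads numbered 12, 6 and 9 in control and 87, 174 and 47 in experimental libraries. Mature Lys-CTT 5' reads numbered 5077, 7718 and 2124 against 42792, 186184 and 72167, and its junctions per 1000 of them overlapped between the groups, at 1.18, 0.259 and 1.88 against 0.397, 0.349 and 0.554.

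The sums with most reads did not differ beyond their spread. Gly-GCC 5' junctions stood at 126 ± 35.95 CPM in control and 172 ± 59.4 in experimental libraries (SD, n = 3; limma voom adjusted p = 0.710). Lys-TTT 5' junctions stood at 152 ± 99.7 against 160 ± 55.3 CPM (SD, n = 3; limma voom adjusted p = 0.842). Among 3' junctions, Ile-TAT stood at 34.4 ± 5.81 against 28.1 ± 5.25, Tyr-GTA at 29.4 ± 25.9 against 27.8 ± 13.7 and Ser-AGA at 18.9 ± 13.7 against 31.2 ± 20.8 CPM (SD, n = 3; limma voom adjusted p = 0.836, 0.984 and 0.651). Of the leaders, Ala-AGC stood at 20.8 ± 14.3 against 20.5 ± 7.65 and Pro-AGG at 22.3 ± 16.8 against 16.98 ± 8.57 CPM (SD, n = 3; limma voom adjusted p = 0.984 for both), and Cys-GCA did not pass the filter.

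Near the bounds of the rule, 862 reads started at the last leader base, just inside (861 where only the first of equal alignments is counted, as above), and 1 read without a mature alignment started at mature base 1, just outside. At the other end, 50 reads started 3 bases before the mature 3' end and were kept, and 104 started 2 bases before it and were counted as trailers.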

How the data were processed

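The authors deposited 1 table of distinct read sequences of 14 to 40 nt, aligned to mature and precursor tRNAs, with a read count per library. Per the file headers and values these deposited values are raw read counts; lines of text stand between them (1812 lines). Which aligner was used is not given in the sources used here. A build, mm9, is named by the submitters' processing notes, but the rat tRNA set does not match it. Groups came from the sample titles. The members, lists and several measures were chosen with earlier results of these data known.

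Each sequence was counted once; reads on several anticodons were split equally. Shares and RPM (reads per 1000000 tRNA-aligned reads) of the 2 groups were compared by exact permutation, two-sided (smallest p 0.1). All fragments, and sums per anticodon and class, were fitted by voom (limma 3.58.1, R 4.3.3, prior count 0.5) after scaling by trimmed means. A feature was kept with 15 counts in all and, in 3 libraries, a CPM that equals at least 10 counts at median depth. P-values were adjusted by Benjamini-Hochberg. Python 3.11.15 was used for the rest. On simulated data for the fragment comparison (2226 fragments, 200 changed), 90.0% of 8-fold, 78.5% of 4-fold and 2.50% of 2-fold changes were recovered, so smaller changes could be missed. The simulated spread was fixed in advance and not estimated from these libraries. The 4 members tested had an SE of 0.954 to 0.974 on the log2 scale, so the simulated recovery cannot be taken to hold for members. The 4-fold size was tried first and fell short of the 80% aimed at, and the other sizes were then added without a change to the fit.

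Named were, per class, the 5 most abundant members, the 3 most read genes, every called member up to 10 and the member in all libraries with the longest flank, and the 3 most abundant sums; others named were chosen after their values were seen. Alternatives are left-out libraries, other scalings, filters and denominators, and restrictions to exact, 1-gene or longer reads. No genome was used.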

Additional observations from a re-analysis of the deposited data

How the results depend on the processing

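Differences below are experimental minus control, in RPM for levels and in percentage points for shares. Leaving out each library in turn gave -226 to 13.1 for all members, -27.0 to 33.4 for leaders, -154 to 39.5 for 5' junctions and -107 to -10.5 for 3' junctions. It gave 1.11 to 2.35 for leader reads at the last leader base, 6.28 to 14.6 for 5' junction reads starting there, 7.61 to 13.4 for 3' junction reads ending in TTT and -9.97 to -2.24 for 3' junctions among 3' junction plus trailer reads. For Lys-TTT 5' junctions it gave -70.0 to 43.0 RPM, -31.7 to -24.7 at position 35, 24.0 to 32.9 at position 36 and -480 to -83.5 per 1000 mature reads. It gave 10.5 to 26.5 for Gly-GCC at position 34 and -3.56 to 0.59 for starts at A after C or T. The Lys-TTT end gap lay between 1.77 and 2.21 bases and the log2 ratio to Lys-CTT between 8.03 and 8.51. Called members numbered 0 to 1 (the Gly-GCC-1-7 read ending at position 34, called without control replicate 1, control replicate 3 or experimental replicate 3) and called member sums 0, while called sums of all kinds went from 1 to between 1 and 6 (2 with control replicate 1 left out and 6 with control replicate 2 left out). That Gly-GCC-1-7 read passed the filter of those fits through experimental libraries alone, so its calls are no support for a difference. The leader difference of 5.69 turned to -5.32 with exact alignments and to -3.03 with reads of at least 18 nt, and leader reads at the last leader base turned to -8.97 with those longer reads. Called members rose to 12 with no filter beyond 1 read in 2 libraries, and called member sums to 1 with sequences of 1 anticodon only, where 4 sums of all kinds were called (Pro-TGG 5' junctions, log2 fold change -2.27, limma voom adjusted p = 0.0449). The causes were not tested, and most of those 12 members met that floor through 1 group alone. Alternatives for the Lys-TTT, Gly-GCC and start-base measures were chosen after seeing the data.

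The replicate numbers did not pair the libraries: deviations of same-numbered libraries correlated at -0.31, -0.06 and 0.14. With the replicate block, 0 members and 0 member sums were called, the class differences kept their values (-112 for all members, exact p = 1), and 3 pairs allow no p under 0.25; called fragments of all kinds went from 586 to 508 and called sums of all kinds from 1 to 5. Single members held few reads, groups held 3 libraries, and a 40 nt ceiling hides longer junctions.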
